A study of Mus musculus with 8 samples.

Results

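Pol II occupancy was read over 107 genes of phase I and phase II detoxification, of 21883 protein-coding genes in all, from ChIA-PET of mouse liver. The genes were chosen by symbol alone from the RefSeq annotation of GRCm38: 18 cytosolic glutathione S-transferases of the classes Gsta, Gstm, Gstp and Gstt, 21 UDP-glycosyltransferases of Ugt1, Ugt2 and Ugt3, 21 sulfotransferases (Sult), 19 carboxylesterases (Ces), 7 flavin-containing monooxygenases (Fmo) and 21 aldehyde dehydrogenases (Aldh). The rule itself uses no measured value. Many members lie in tandem clusters, and the 107 windows used here merged into 92 separate loci.

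ChIA-PET pulls down crosslinked chromatin with an antibody, links DNA fragments that sit in the same complex, and sequences both sides of each junction as a paired-end tag (PET). All 8 libraries came from livers of wild type C57BL/6 mice 3 to 6 months old, taken at ZT06 or ZT18 (hours after lights on), and used the Pol II antibody 8WG16. Experiment 1 had 2 libraries at each time and experiment 3 had 1 at each, both crosslinked with 1.5 mM EGS and 1% formaldehyde, and experiment 2 had 1 at each, crosslinked with 1% formaldehyde alone. The chromatin of 3 to 7 whole livers was combined for each immunoprecipitation, so single animals and single liver cell types are not resolved, and fewer cells of a type cannot be told apart from less Pol II per cell. The table marks each PET with its experiment and linker and with no library, so day and night were not compared, and each experiment is 1 pool without replicates.

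Detoxification in liver runs in steps. Fmo enzymes add oxygen to nitrogen and sulfur atoms, Aldh enzymes oxidise aldehydes to acids, and Ces enzymes split esters and amides. Gst, Ugt and Sult enzymes then couple glutathione, sugars such as glucuronic acid, or sulfate to the product, which makes it easier to excrete. Hepatocytes hold most of these activities, and several families are known to be switched on by the receptors AhR, CAR and PXR and by NRF2.

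The table held 474478, 1438866 and 840210 PETs in experiments 1, 2 and 3, and the mean density over the nuclear chromosomes was 0.349, 1.06 and 0.616 ends per kb. PETs with both ends within 8 kb made up 22.5% of the nuclear PETs in experiment 1, 6.23% in experiment 2 and 14.8% in experiment 3. PETs joining different chromosomes made up 73.1%, 88.7% and 80.2%. Hepatocyte markers lay at 2-fold or more over the mean for 8, 6 and 7 of 8 genes in experiments 1, 2 and 3. Of all protein-coding genes, 27.7%, 6.52% and 25.4% did. The hepatocyte markers had medians of 46.0, 6.08 and 10.8, and Serpina1c, one of a group of close copies, was lowest at 0.504 in experiment 2. Medians of 5 markers each, in experiments 1, 2 and 3, were 1.16, 1.25 and 1.68 for endothelium. They were 0.970, 1.48 and 1.27 for Kupffer cells and 1.84, 1.36 and 1.77 for cholangiocytes. The markers at 2-fold in experiment 1 numbered 0, 2 and 1 of 5 in these lists (Csf1r at 3.10, Cd5l at 2.68 and Sox9 at 5.71), against 27.7% of all genes. Medians were 1.09, 1.34 and 1.38 for stellate cells and 1.20, 1.29 and 1.39 for lymphocytes. For 5 neuron genes, taken as silent in liver, they were 1.08, 1.39 and 1.42. In experiment 1, 1 of 5 stellate markers reached 2-fold (Lrat at 2.27), and 0 of the lymphocyte and neuron genes did. No marker of any list was at 0 ends.

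Each value below is a relative density. It is the number of PET ends per base in a window of the gene plus flanks of 2.5 kb, divided by the mean density of that experiment. Ranges in brackets are 95% exact Poisson intervals on the PETs, which cover counting error only. A member had a median of 16, 28 and 22 ends in the 3 experiments, so many single members have wide intervals.

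Members reached 2-fold over the mean of the genome most often in experiment 1. There, 44 of 107 members (41.1%) reached 2-fold, against 27.7% of all protein-coding genes. In experiment 2, 11 members (10.3%) reached it, against 6.52%, and in experiment 3, 33 members (30.8%), against 25.4%. The 11 members of experiment 2 also reached 2-fold in both other experiments, against 5.31% of all genes. They were Ces3a, Gsta3, Gstp1, Gstp2, Gstp3, Gstt3, Ugt1a1, Ugt1a2, Ugt1a5, Fmo5 and Aldh1l1. With overlapping windows merged, 6 loci reached 2-fold in all experiments. From PETs within 8 kb alone, 43 members (40.2%) reached 2-fold in experiment 2, against 33.1% of all genes counted that way. Relative to the median gene, 16 (15.0%) did in experiment 3, against 11.1%.

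The middle of the list was less far from other genes. The median member had a relative density of 1.68 in experiment 1, 1.09 in experiment 2 and 1.51 in experiment 3, while the median of all genes was 1.22, 1.20 and 1.42. In experiment 2 the median member was thus below the median gene. Relative to windows 10 to 110 kb away, the median member of experiment 1 stood at 1.03 and the median gene at 1.12. In experiments 2 and 3 the median member was above the median gene by this measure, at 1.20 against 1.10 and 1.22 against 1.15. All 3 experiments were above the mean for 50 members (46.7%), against 47.2% of all genes, and below it for 18 members (16.8%), against 16.1%. These shares are near the background.

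**Figure D1:**
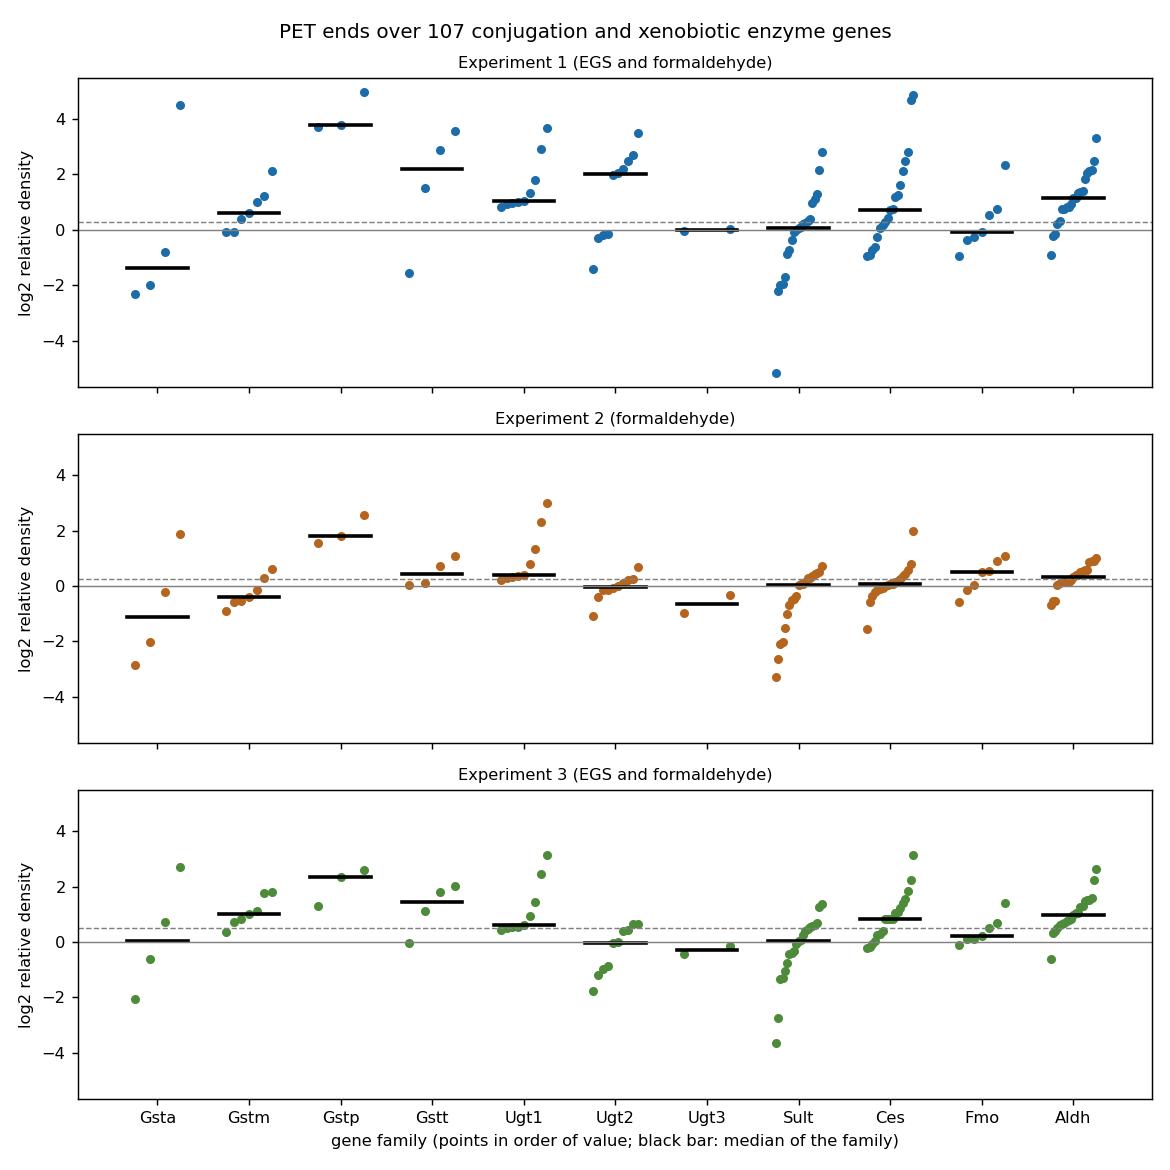
Log2 relative density of each of the 107 members in experiments 1, 2 and 3, by family, with 0.5 end added to each count; the solid grey line is the mean of the genome, the dashed line the median of all protein-coding genes, and black bars are family medians of the log2 values. Gsta and Ces span from strongly occupied to low members, and Sult2a2 is the lowest point of experiment 1.

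The pooled density of the families, over merged windows, followed the same order at the top and the bottom of each experiment. Gstp stood at 17.9 (14.4 to 21.9), 3.79 (2.93 to 4.84) and 4.20 (3.04 to 5.66) in experiments 1, 2 and 3. Gsta followed at 7.76, 1.48 and 2.71, and Gstt at 5.28, 1.40 and 2.59. The pooled Gsta value was carried by Gsta3: the family median was 0.341, 0.534 and 1.11. Of the 97, 78 and 84 Gstt ends, 43, 11 and 19 lay in the 2.5 kb past Gstt3, whose window also reaches Ddt. Gstp exceeded Gsta beyond counting error in each experiment, by 2.30-fold (1.78 to 2.96), 2.56-fold (1.87 to 3.48) and 1.55-fold (1.08 to 2.20). The merged windows cover 18.9 kb for Gstp and 90.6 kb for Gsta, so start sites and flanks weigh more in Gstp. Over all genes in experiment 1, density was 8.14 within 1 kb of the start and 1.12 in the body. Pooled values were not adjusted for gene length. Gsta and Gstt were apart in experiment 1 but not in experiments 2 and 3.

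Ces stood at 4.12, 1.18 and 2.16, and Aldh at 2.71, 1.28 and 2.25. Sult, at 1.20, 0.705 and 0.888, and Ugt3, at 0.961, 0.634 and 0.806, were the lowest in each experiment and did not differ beyond counting error. The low place of Sult was carried by Sult2a1 to Sult2a6. Without them Sult pooled at 1.90, 1.05 and 1.33, above Gstm in experiments 1 and 2 and above Ugt2 in experiment 3. Neighbours in the order that differed beyond it were 4 of 10 in experiment 1, 1 of 10 in experiment 2 and 3 of 10 in experiment 3.

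**Figure D2:**
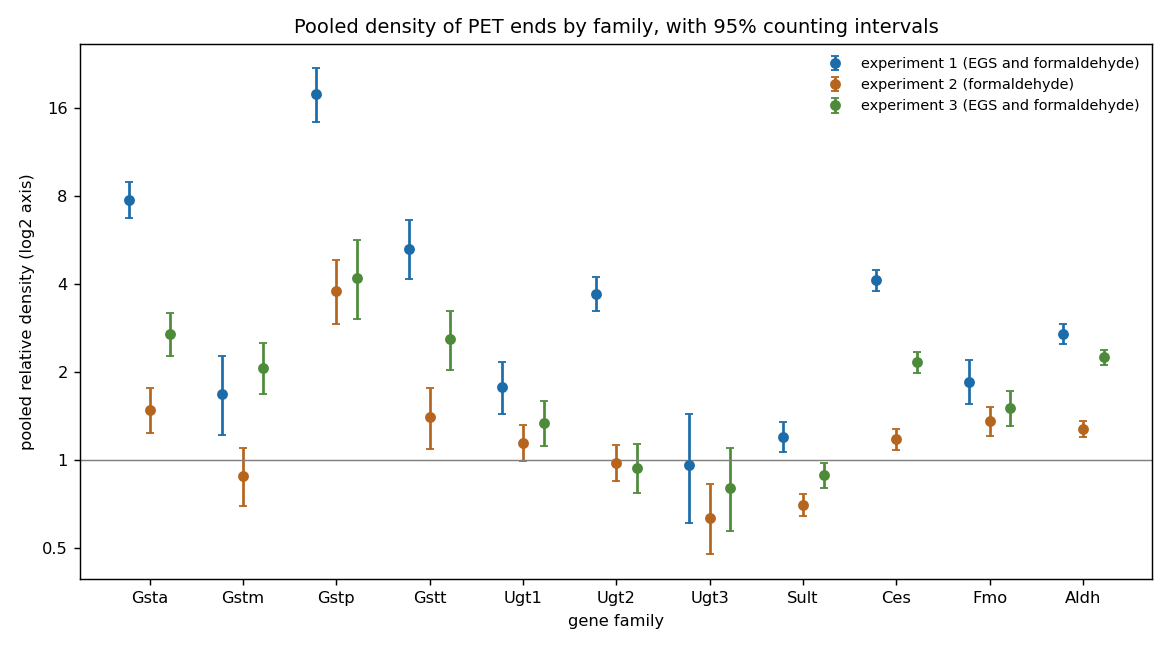
Pooled relative density of each family on a log2 axis, with 95% Poisson intervals, in experiments 1 (blue), 2 (orange) and 3 (green); the grey line is the mean of the genome. Gstp is highest in all 3 experiments, and Ugt2 is high in experiment 1 alone, at 3.71 against 0.981 and 0.940.

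The pi class of glutathione transferases had the highest pooled density of the conjugating families in each experiment. Gstp1, on GRCm38 at chr19:4035411-4037912, had 81, 46 and 23 ends in experiments 1, 2 and 3. Its relative density was 31.0 (23.6 to 39.9), 5.80 (4.12 to 7.93) and 4.98 (3.04 to 7.69). Within 1 kb of its start site the density reached 61.6, 12.3 and 12.2. The first 500 bp of the gene alone held 23 ends in experiment 1. The rest of the short gene body held 6, 5 and 2 ends, a density of 11.5, 3.15 and 2.16. In the 2.5 kb past its end lay 32, 15 and 5.

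The 250 bases before the Gstp1 start site, at chr19:4037913-4038162 on the minus strand, held 11, 5 and 4 ends. They are shown because Gstp1 had the highest mean log2 density of the pi class. Capitals mark GCGTG, the core of the dioxin response element bound by AhR, which begins 13 bases before the start. A match describes the letters and is not shown to be a bound site.
Gstp1: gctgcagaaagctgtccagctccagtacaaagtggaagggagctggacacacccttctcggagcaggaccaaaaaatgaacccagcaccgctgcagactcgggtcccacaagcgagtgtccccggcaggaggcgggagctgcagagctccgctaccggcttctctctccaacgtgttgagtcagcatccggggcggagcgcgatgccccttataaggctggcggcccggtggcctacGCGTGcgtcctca

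Gstp3 is the next pi gene, at chr19:4057470-4059605, with 34, 26 and 26 ends and relative densities of 13.7, 3.45 and 5.92. Gstp2, at chr19:4040288-4042221, had 31, 21 and 10 ends (12.8, 2.86 and 2.34) but 1, 0 and 0 within the gene itself. Its ends therefore lay in the flanks, which overlap the Gstp1 window. Pi genes are close copies, so how the authors' alignment placed reads among them makes the split uncertain.

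The alpha class was divided between 1 strongly occupied gene and 3 lower ones. Gsta3, at chr1:21240565-21265575, held 239, 115 and 119 ends, the most of any member in experiment 1. Its relative density was 22.8 (19.7 to 26.3), 3.62 (2.95 to 4.40) and 6.44 (5.29 to 7.77). Start site and body were closer in density than in Gstp1: the body stood at 23.8, 3.63 and 6.91, and the start site at 47.3, 7.09 and 8.12. Gsta1, also a glutathione transferase of the alpha class, held 1, 2 and 2 ends (0.169, 0.111 and 0.191), and Gsta2 held 1, 5 and 8 (0.135, 0.223 and 0.614). Of the 1 kb tiles of the Gsta1 window, 76.5% were without an end in all experiments, against a median of 12.5% over all genes. At least 50% of tiles were empty for 9 members (8.41%), against 10.1% of all genes. Near-identical copies can lose reads in alignment, and this was not tested.

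The 250 bases before the Gsta3 start site, at chr1:21240335-21240584 on the plus strand, held 4, 3 and 2 ends. They are shown for this gene's contrast with Gsta1 and Gsta2. The start site used lies inside the gene span given above, so the last bases printed overlap that span. Capitals mark, in order, a match to the HNF1 motif GTTAAT (reverse strand), a C/EBP match (reverse strand) and an antioxidant response element, the type of site NRF2 binds, beginning 149, 137 and 121 bases before the start.
Gsta3: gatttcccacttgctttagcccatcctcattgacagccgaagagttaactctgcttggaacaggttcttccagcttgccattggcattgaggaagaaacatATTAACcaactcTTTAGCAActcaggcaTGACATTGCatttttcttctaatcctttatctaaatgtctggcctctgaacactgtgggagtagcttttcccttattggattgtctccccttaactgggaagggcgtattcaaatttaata

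In the theta class, Gstt3 was highest, with 50, 27 and 30 ends and relative densities of 11.7, 2.08 and 3.96. Only 7, 14 and 10 of these ends lay within the gene, and its window also reaches Ddt and Gstt1. Gstt2 followed at 7.32, 1.61 and 3.38 with 27, 18 and 22 ends, and Gstt1 stood at 2.76, 1.05 and 2.14. Gstt4 was lowest, with 1, 13 and 7 ends (0.227, 0.974 and 0.901). The mu class pooled at 1.68, 0.885 and 2.07. Gstm1, its highest member, had 16, 17 and 22 ends (4.28, 1.5 and 3.33), and Gstm3, its lowest, had 3, 7 and 10 (0.821, 0.632 and 1.55). In experiment 2, 0 of 7 mu genes reached 2-fold, which is near the 6.52% of all genes.

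**Figure D3:**
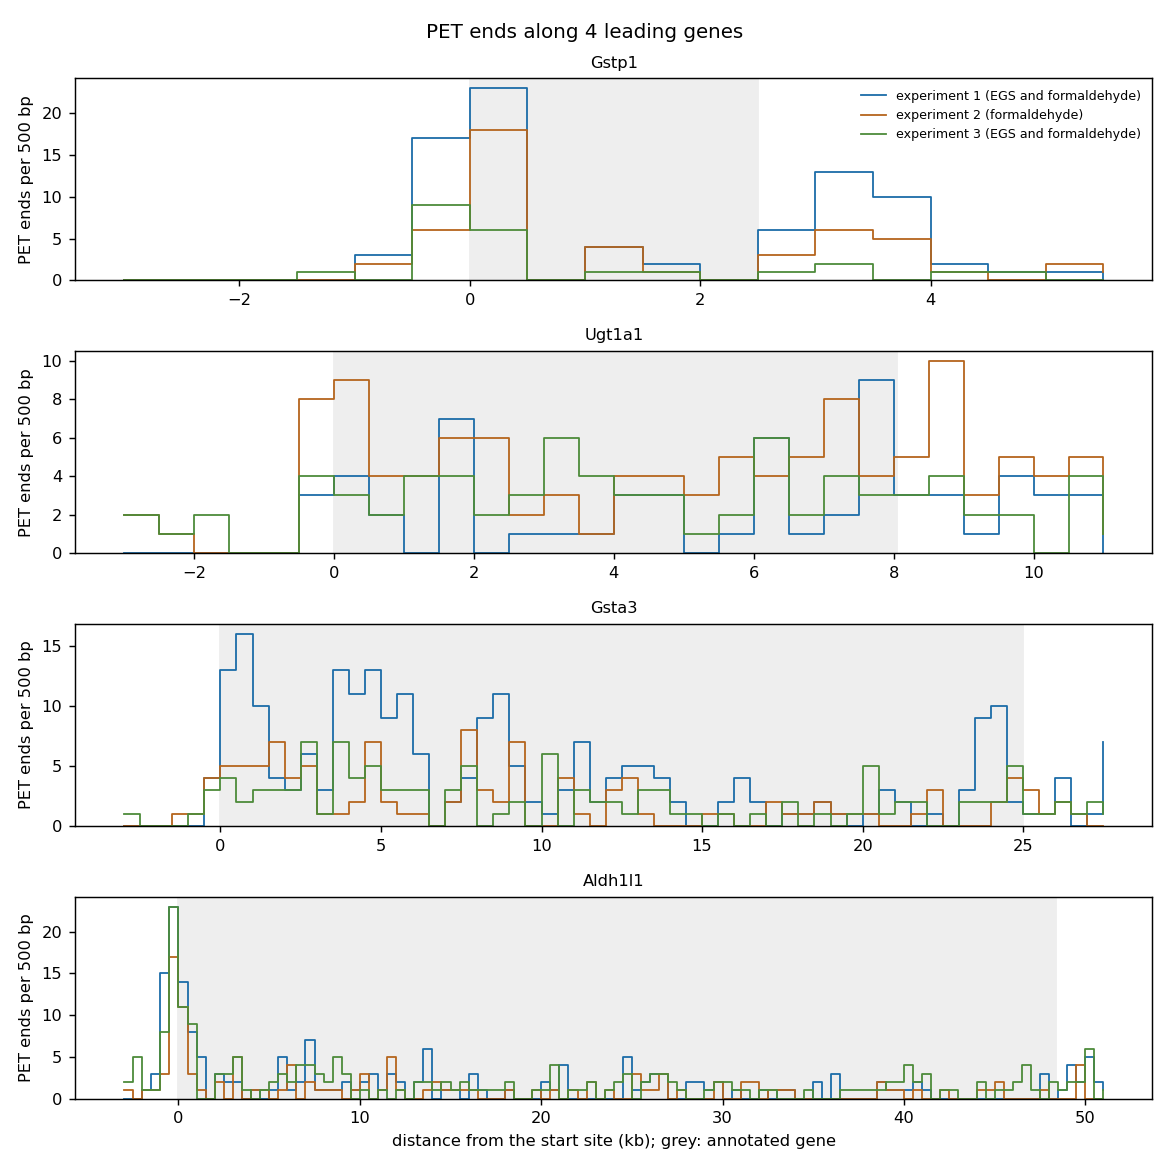
PET ends per 500 bp along Gstp1, Ugt1a1, Gsta3 and Aldh1l1 in the 3 experiments, by distance from the start site in kb, with the annotated gene in grey; counts are not scaled to depth. Gstp1 and Aldh1l1 peak at the start site, while Gsta3 holds ends along much of the gene and Ugt1a1 along all of it and past its end.

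Among the glucuronidating enzymes, the Ugt1 locus showed 1 occupied stretch at its shared end. Its 9 genes are spliced from separate first exons onto the same last exons, so their windows overlap and they are not independent. Ugt1a1, which couples glucuronic acid to bilirubin, lies at chr1:88211959-88220002 and had 58, 108 and 71 ends. Its relative density was 12.8 (9.44 to 16.9), 7.83 (6.39 to 9.51) and 8.84 (6.85 to 11.2), the highest values of all members in experiments 2 and 3, although its interval overlapped that of Gstp1 in experiment 2 and that of Ces3a in experiment 3.

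Density along the locus was uneven. From the start of Ugt1a10 to the start of Ugt1a1, 156.548 kb with the other first exons, it was 0.898 (0.664 to 1.19), 0.641 (0.524 to 0.775) and 0.778 (0.612 to 0.975). Over the Ugt1a1 span with the shared exons it was 14.6, 8.47 and 10.5, and in the 2.5 kb past the shared end 16.1, 10.2 and 7.80. Ugt1a2 (7.53, 4.89 and 5.46) and Ugt1a10 (1.78, 1.15 and 1.34) include that stretch in their windows, so their values carry it. Within the Ugt1a1 window, start site and body were close: 12.9, 9.93 and 7.31 at the start against 14.3, 7.92 and 10.8 in the body.

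The 250 bases before the Ugt1a1 start site, at chr1:88211709-88211958 on the plus strand, held 2, 4 and 3 ends. They are shown because Ugt1a1 had the densest window of its locus. Capitals mark a match to the HNF1 motif GTTAAT on the reverse strand, 41 bases before the start. HNF1 is a liver transcription factor.
Ugt1a1: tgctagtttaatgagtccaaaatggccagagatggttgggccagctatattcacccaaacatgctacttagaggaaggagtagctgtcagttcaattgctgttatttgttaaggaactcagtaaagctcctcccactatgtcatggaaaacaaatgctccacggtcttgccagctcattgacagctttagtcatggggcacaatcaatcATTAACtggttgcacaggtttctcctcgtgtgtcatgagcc

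Ugt2 genes, whose products glucuronidate steroids, bile acids and drugs, stood apart between the experiments. In experiment 1, 6 of 10 reached 2-fold, against 27.7% of all genes. In experiments 2 and 3, 0 of 10 did, against 6.52% and 25.4%, so the count of experiment 2 is near the background. Ugt2b1 was highest, at chr5:86916639-86926503, with 58, 18 and 14 ends and relative densities of 11.2 (8.16 to 15.0), 1.15 (0.667 to 1.83) and 1.53 (0.790 to 2.67). Ugt2b38 was lowest with 2, 19 and 3 ends (0.298, 0.933 and 0.253).

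The family's pooled density was 3.71, 0.981 and 0.940. Experiment 1 exceeded experiment 3 by 3.95-fold (3.12 to 5.02) for Ugt2, against 1.61-fold (1.53 to 1.70) over all members. The Ugt2 ratio was 2.49 times that of the other 10 families together (1.95 to 3.19, conditional odds ratio on PETs). By the same measure Gstp stood at 2.63 times (1.81 to 3.89), Gsta at 1.77 (1.41 to 2.23) and Ces at 1.25 (1.10 to 1.43). Below 1 were Sult at 0.825 (0.696 to 0.977) and Fmo at 0.766 (0.607 to 0.965). So were Aldh at 0.658 times (0.583 to 0.741) and Gstm at 0.508 times (0.345 to 0.736). For Ugt1 the interval of 0.870 (0.656 to 1.15) included 1, as did those of Gstt and Ugt3. Both experiments used the same crosslinkers, and what else differed between these pools was not tested. Ugt3a1 and Ugt3a2, which transfer sugars other than glucuronic acid, had values under the mean in every experiment, although only the interval of Ugt3a2 in experiment 2 (0.304 to 0.752) lay below 1: 13, 33 and 22 ends for Ugt3a1 (0.927, 0.776 and 0.889) and 14, 21 and 18 for Ugt3a2 (0.994, 0.492 and 0.724).

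Sulfotransferases held the member with the lowest mean log2 density, Sult2a2, in the Sult2a cluster, whose enzymes sulfate steroids and bile acids. Gsta1 was next lowest. Sult2a2 had 0, 5 and 2 ends in its window, a relative density of 0 in experiment 1 (3 ends would give 0.168), 0.0925 and 0.0635. Pooled, the Sult2a1 to Sult2a6 genes stood at 0.311 (0.214 to 0.437), 0.265 (0.214 to 0.325) and 0.323 (0.248 to 0.413), and the other 15 Sult genes at 1.90, 1.05 and 1.33. The tile share without an end was 90.2% for Sult2a2, 68.3% for Sult2a3 and 67.4% for Sult2a1. These are near-identical copies, and loss of reads in alignment was not tested. Outside these 6, Sult2a8 had 99, 60 and 60 ends (6.91, 1.38 and 2.37), and Sult1a1, a phenol sulfotransferase, had 35, 33 and 35 (4.45, 1.38 and 2.52). The Sult1a1 window also holds Sgf29 and Slx1b.

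Carboxylesterases, which split esters, held the member with the highest mean log2 density over the 3 experiments, although Gstp1 was above it in experiments 1 and 2. This was Ces3a. Located on chr8:105048576-105061928, it had 185, 76 and 99 ends, a relative density of 28.9 (24.4 to 34.0), 3.92 (3.06 to 4.94) and 8.76 (7.01 to 10.8). Its neighbour Ces3b, at chr8:105083733-105093929, had 135, 27 and 44 ends, at 25.5, 1.68 and 4.70. Experiment 1 exceeded experiment 2 by 15.2-fold (9.43 to 25.5) for Ces3b, the highest such ratio among the 107 members. The Ces3 pair pooled at 27.4, 2.90 and 6.92, Ces1 at 3.16, 1.07 and 2.03, and Ces2 at 0.967, 0.850 and 1.46. Ces2c was the lowest Ces gene, with 4, 4 and 6 ends (0.924, 0.305 and 0.785). Ces1d, a triacylglycerol hydrolase of liver, stood at 7.03, 1.08 and 3.58.

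Of the oxidising enzymes, 1 of 7 Fmo genes reached 2-fold in each experiment, against 27.7%, 6.52% and 25.4% of all genes. This was Fmo5 with 88, 113 and 81 ends (5.01, 2.12 and 2.61), though its window includes part of Chd1l.

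Among aldehyde dehydrogenases, Aldh1l1, which oxidises 10-formyltetrahydrofolate, led at chr6:90550768-90599171 with 186, 114 and 201 ends. Its relative density was 9.99 (8.41 to 11.8), 2.02 (1.64 to 2.47) and 6.11 (5.22 to 7.11). The ends gathered at the start: 86.0, 16.1 and 41.4 within 1 kb of it, against 6.60, 1.48 and 4.46 in the body. Aldh2, the mitochondrial acetaldehyde dehydrogenase, held 51, 45 and 95 ends (4.46, 1.30 and 4.70). Experiments 1 and 3 did not differ beyond counting error for it (ratio 0.948, 0.645 to 1.38). Aldh3b3 was lowest, with 3, 13 and 7 ends (0.461, 0.658 and 0.608).

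The 250 bases before the Aldh1l1 start site, at chr6:90550543-90550792 on the plus strand, held 15, 12 and 13 ends. They are shown as the densest of the 4 promoters printed in each experiment. Here too the start site used lies inside the gene span given above, so the last bases printed overlap it. Capitals mark a C/EBP match and, on the reverse strand, a match to the nuclear receptor motif AGGTCA, beginning 234 and 178 bases before the start.
Aldh1l1: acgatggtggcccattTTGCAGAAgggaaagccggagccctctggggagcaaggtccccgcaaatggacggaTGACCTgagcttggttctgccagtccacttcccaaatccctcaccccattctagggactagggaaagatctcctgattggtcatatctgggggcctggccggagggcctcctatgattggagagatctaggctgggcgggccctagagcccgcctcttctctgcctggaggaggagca

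In experiment 1, members with a known start site (Ugt1 left out) were close to other genes at the start and denser in the body. For 77 such members the density within 1 kb of the start was 7.71, 2.27 and 3.61, and in the body 2.34, 1.04 and 1.47. Over 15248 genes of all kinds the values were 8.14, 2.49 and 4.55 at the start and 1.12, 1.15 and 1.22 in the body. The pooled body value of experiment 1 rests in part on Gsta3 and Ces3b: without them it was 1.89, and the median member stood at 1.31 against 1.02 for all genes. Of these members, 29.9% had no end within 1 kb of the start in experiment 1, against 29.1% of all genes.

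**Figure D4:**
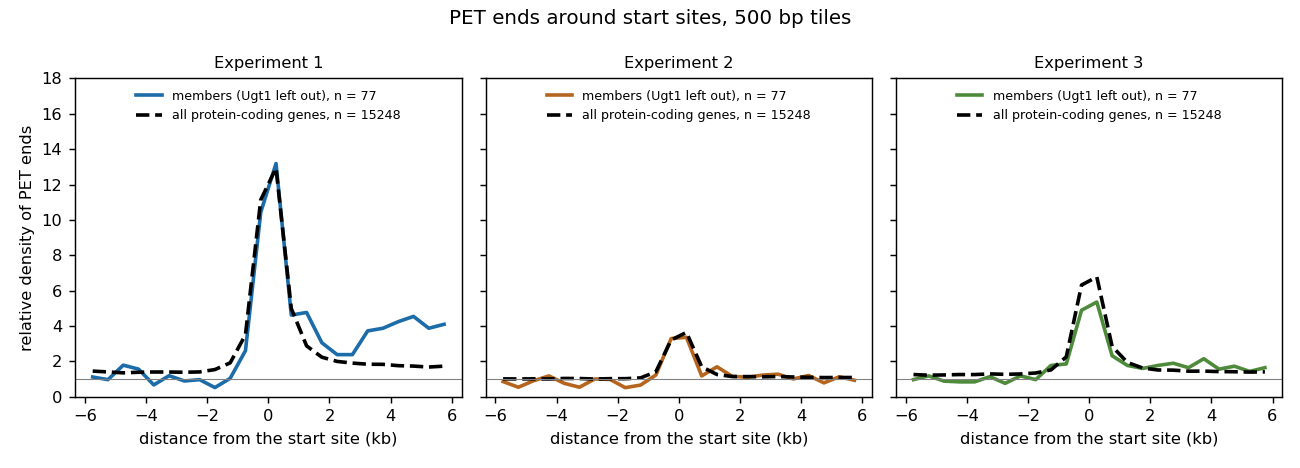
Relative density of PET ends in 500 bp tiles around start sites, by distance in kb, for 77 members (coloured) and 15248 protein-coding genes (dashed). In experiment 1 the tile after the start stood at 13.2 for members and 12.9 for all genes, the next tile at 4.62 and 4.99, and members were higher in the tiles from 1 kb to 6 kb; in experiment 3 members were lower at the start, 5.36 against 6.78.

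The experiments differed by gene as well as in level. Experiment 1 was at least 2 times experiment 2 for 41 members (38.3%), against 29.8% of all genes, and at least 2 times experiment 3 for 19 (17.8%), against 12.5%. It was at most 1/2 of experiment 2 for 5 members (4.67%), against 6.89%, and at most 1/2 of experiment 3 for 10 members (9.35%), against 9.32%. Experiment 3 was at least 2 times experiment 2 for 24 members (22.4%), against 15.2%, and at most 1/2 of it for 4 (3.74%), against 3.72%. The ratio of experiment 1 to experiment 3 was 7.32 (3.81 to 15.2) for Ugt2b1, Gstp1 6.22 (3.70 to 10.9), Gsta3 3.55 (2.79 to 4.53) and Ces3a 3.30 (2.51 to 4.36). Ces1a and Aldh1l2 went the other way beyond counting error, at 0.343 (0.128 to 0.787) and 0.519 (0.264 to 0.960). Gstm7, a mu class gene, was also lower in experiment 1 at 0.642 (0.212 to 1.65), within counting error of 1. Its 3 values were 2.18, 0.718 and 3.39, from 8, 8 and 22 ends. With 2 dual-crosslinked pools against 1, an exact permutation test cannot give a two-sided p under 0.333, so the median values are only described.

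**Figure D5:**
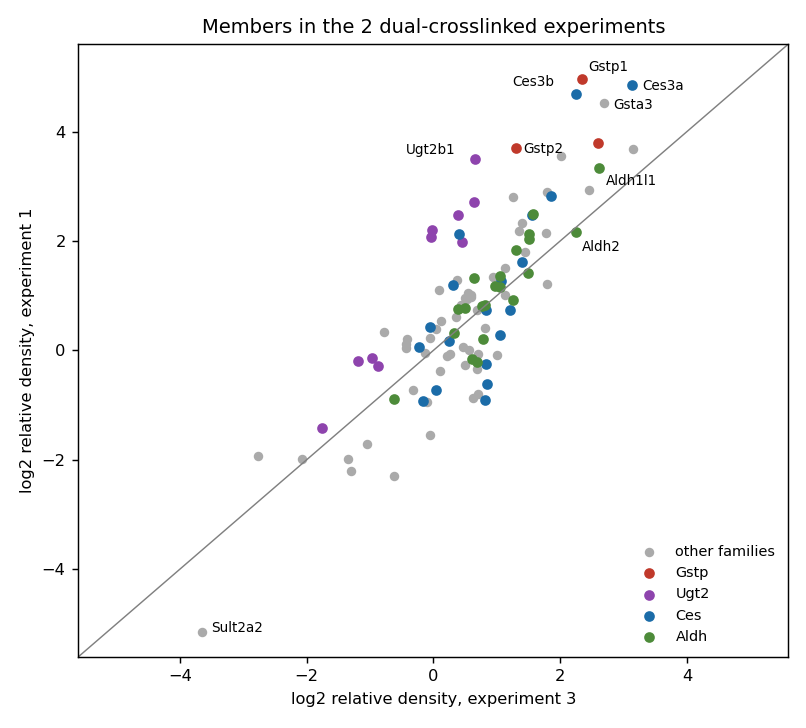
Log2 relative density of the 107 members in experiment 1 against experiment 3, both crosslinked with EGS and formaldehyde, with 0.5 end added; the line is equality. The 6 Ugt2 genes (purple) at 2-fold in experiment 1 necessarily lie above the line, since 0 of 10 reached 2-fold in experiment 3. Gstp1, Ces3a, Ces3b and Gsta3 also lie above the line, while Aldh2 lies near it.

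PETs joining a member to a place 8 kb to 1 Mb away numbered 26 (17.0 to 38.1). Experiment 1 gave 6 of them, experiment 2 gave 0 and experiment 3 gave 20, from 1206, 1613 and 3461 PETs of this span over the whole genome. At least 1 such PET touched 26 members (24.3%), against 22.3% of all genes. The median span was 78.0 kb, and 14 were within 100 kb. No pair of members was joined by more than 1 PET, and chance ligation was not tested.

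Where both ends met members, the contacts ran within clusters. Gstt1 was joined to Gstt2 over 36.9 kb, and Gstt2 to a site in Ddt inside the Gstt3 window over 63.4 kb, and Ces1f to Ces1g over 46.2 kb. The other joined the 2.5 kb past the Ugt1 shared end to a place 32.4 kb away, within the Ugt1 locus. Sult2a8 had 2 PETs of experiment 1 to places 25.5 and 29.7 kb past Sult2a7. Gstt2 was touched by 3 PETs, the most for any member.

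The remaining contacts joined single members to other genes or intergenic DNA. Ces1e, a carboxylesterase, had 2 over 16.4 and 23.1 kb (its densities were 1.63, 1.19 and 2.28). Ces3b had 1 over 21.4 kb from 123 bp beside its start site, and Ces2c 1 over 64.5 kb. Aldh4a1, of proline breakdown (4.06, 1.10 and 2.81), was joined from 223 bp beside its start to Iffo2 over 48.2 kb, and Aldh6a1, of valine breakdown (4.31, 1.83 and 2.82), from 33 bp beside its start over 33.8 kb to a place where Bbof1 and Rnf113a2 overlap. Longer ones ran from Gstp3 (796 kb, in Ctsf), Ces3a (606 kb, in Dync1li2), Aldh3b1 (173 kb, in Cdk2ap2) and Gstm7 (370 kb, in Sort1). The retinaldehyde dehydrogenases Aldh1a1 (1.77, 1.11 and 1.75), Aldh1a2 (1.68, 1.42 and 1.29) and Aldh1a3 (1.72, 1.32 and 1.68) had 1 each. So did Aldh16a1 (2.59, 1.82 and 2.75), Ces2e (0.428, 0.987 and 1.70), Sult4a1 (0.745, 1.01 and 1.59), Sult1a1 and Fmo5. The ends assigned to Sult4a1, Sult1a1 and Fmo5 lay in their neighbours Efcab6, Slx1b and Chd1l within the flanks.

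Other genes of the pathway, from lists set by role, reached 2-fold in larger shares than the members did, with no test made of the difference. The lists name chosen genes and were set with earlier results of these data known. Members take in every gene of each symbol family, so the difference in shares can follow from how the genes were picked. Of 59 genes, 45 reached 2-fold in experiment 1 (76.3%), 10 in experiment 2 (16.9%) and 37 in experiment 3 (62.7%), against 27.7%, 6.52% and 25.4% of all genes. Among 11 sensors and liver regulators, 9, 2 and 9 reached it in experiments 1, 2 and 3. They had a median of 5.50, 1.37 and 3.72, and ran from Cebpa (69.9, 15.2 and 24.2), a hepatocyte transcription factor, down to Arnt (1.69, 1.09 and 1.58), the partner of AhR. Of 8 genes that supply cofactors, 6, 1 and 5 reached it. Ugdh, which makes UDP-glucuronic acid, stood at 3.43, 2.26 and 3.47, and Papss1, which makes the sulfate donor, at 1.20, 1.31 and 1.24. Of 28 other conjugating and redox enzymes, 23, 6 and 16 reached it. Gnmt, which methylates glycine, was highest (52.4, 9.30 and 15.2) and Maob, a monoamine oxidase, lowest (0.989, 0.560 and 0.618). Of 12 transporters, 7, 1 and 7 reached it. Slc10a1, the sodium-coupled bile acid carrier, was highest (14.8, 2.30 and 3.96) and Abcb1a, a drug efflux pump, lowest (0.938, 0.999 and 0.688).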

How the data were processed

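Pol II ChIA-PET was measured in mouse liver with 8 libraries. The table deposited by the authors lists PETs one per line, with both positions, experiment and linker. Its columns hold genome positions, with no counts per library, so values here are sums of rows over each experiment. Per the submitters' processing notes, Bowtie2 and the build mm10 were used; versions and filters are not stated there. PETs with a mitochondrial end were left out of the mean.

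Ends were counted with Python 3.11.15, numpy 2.4.6, pandas 2.3.3 and scipy 1.17.1 over RefSeq gene spans of assembly GRCm38.p6 with 2.5 kb flanks. Ratios use conditional exact binomial intervals. Members were ranked by the mean of log2 relative density over the 3 experiments, with 0.5 end added. Named genes are the highest and lowest of each family, the 10 highest of all members, members with a contact, and the highest and lowest of each pathway role. Some results under this rule are not reported here. A few further members (Gsta2, Aldh2, Aldh1l2, Ces1a, Ces1d and Sult2a genes) were named after their values were seen. Members and lists were chosen with earlier results of these data known. Promoter sequences are from RefSeq (GRCm38.p6), with an entry for 87 of 107 members; printed are the 250 bases before each start. The design's count model for ZT18 against ZT06 was not run. Counting was tested on simulated data.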

Additional observations from a re-analysis of the deposited data

How the results depend on the processing

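No paired analysis was possible because the table names no library, so no sample has a number of its own. The count of members at 2-fold in experiment 2 rose from 11 to 43 with PETs within 8 kb alone. It was 20 at 1.5-fold, 6 at 3-fold and 6 with overlapping windows merged, an alternative chosen after seeing the data. In experiment 3 the count of 33 became 16 relative to the median gene, 55 at 1.5-fold and 14 at 3-fold. The count of 11 in all experiments became 27 with PETs within 8 kb, 6 relative to the median gene, 6 relative to windows 10 to 110 kb away, 18 at 1.5-fold, 6 at 3-fold, 29 without experiment 2 and 6 with merged windows. The median member of experiment 1 moved from 1.68 to 1.03 relative to windows 10 to 110 kb away, that of experiment 2 from 1.09 to 1.53 with PETs within 8 kb, 0.907 relative to the median gene and 1.20 relative to those windows, and that of experiment 3 from 1.51 to 1.06 and 1.22 under the last 2. Contacts fell from 26 to 14 with a limit of 100 kb and to 6 without experiment 3. Gstp2 in experiment 3 went below the mean with linker TAAG alone, to 0.894. The causes were not tested. Of 51 alternatives for the counts, 37 stayed within 1.5 times the reported count. Pooled family values moved outside their counting intervals in 46 of 198 alternatives, and those of named members in 31 of 246 besides the one that reversed. Single members rest on few PETs, and their counting intervals set what can be told apart.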

Other observations

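Promoter letters differed in share between members and all windows of 300 bases in the RefSeq table (87 member windows, 32851 in all), both strands searched. The D-box TTATGNAA was in 12.6% of member windows, 3.38% of all windows and 4.06% of those whose GC content lay within the members' quartiles. Its 11 genes include Ces1a, Ces1b, Ces1c, Ces1e and Ces1g, which are neighbouring copies, and Ugt2b1. The HNF1 motif GTTAAT was in 20.7%, 7.10% and 9.01%, and C/EBP TTGCNNAA in 25.3%, 10.8% and 13.8%. The antioxidant response element TGACNNNGC was in 4.6%, 12.4% and 11.4%, with Gsta3 among its 4 genes. The dioxin response element GCGTG was in 20.7%, 32.4% and 18.1%, the E-box CACGTG in 2.30%, 7.15% and 5.27%, and the nuclear receptor motif AGGTCA in 18.4%, 16.3% and 21.0%. Median GC was 45.7% in member windows, 52.7% in all and 48% in those within the members' quartiles, so the last set was not fully matched to the members. Members include tandem copies, so these windows are not independent, and no test was made.

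The linker divides each experiment, and which library carried which linker is not stated. The intervals of the 2 linker subsets did not overlap for 2 members, both in experiment 2. Aldh1l1 stood at 4.02 (2.87 to 5.48) with linker ATGT and 1.42 (1.08 to 1.85) with TAAG, and Gsta3 at 6.19 (4.38 to 8.5) and 2.86 (2.20 to 3.66). No member's intervals were apart in experiments 1 and 3.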
